A study of Drosophila melanogaster with 12 samples.

Results

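The sex difference in gene expression was examined in whole virgin Drosophila melanogaster from polygamy populations. The arrays were 3 polygamy males and 3 polygamy females, 6 of the 12 arrays of the study, chosen by their labels and not by any measured value. Each of 3 independent populations had evolved for 65 generations under polygamy and gave 1 male and 1 female sample, so that the sexes are paired by population. The other 6 arrays came from 3 monogamy populations sampled in the same way. All flies were virgin, were 4 days old, carried the genetic background labelled IV and were fed standard cornmeal medium. Total RNA was labelled with Cy3 and read on NimbleGen arrays of 1 colour. Values are log2 expression levels of 16637 transcripts per array, and a difference of 1 on this scale is a ratio of 2. The labels do not give the number of flies behind a sample. Populations are the replicates, so the error of every test holds both the variation among populations and that of the array measurement.

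Males and females of this species differ most in their gonads. The testis transcribes many genes that are used only in sperm formation, and the ovary loads the egg with RNA for the embryo, including RNA for growth, DNA repair and cell division. In a whole fly the gonads, the male accessory glands and the female fat body are read together with tissues that both sexes share. In such bulk samples fewer cells of a type and less RNA per cell cannot be told apart.

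The deposited identifiers are FlyBase transcripts, of which a RefSeq gene table of assembly Release 6 named 44. Of these, 36 were named through a tag that marks the reading frames of a transcript with an upstream frame, so the named transcripts are not a sample of all. None of 42 genes in 6 marker lists (male germline, male accessory gland, yolk proteins, eggshell, female germline and male dosage compensation) was among the named transcripts, and the labelled sexes were not checked against marker genes. Polygamy female 3 stood apart from the other polygamy arrays. Its 5th percentile was 5.42 and its median 9.87, against 4.30 to 4.36 and 10.22 to 10.28 in the other 2 polygamy females and 4.20 to 4.22 and 10.14 to 10.18 in the polygamy males. It correlated at 0.78 with polygamy female 1 and at 0.74 with polygamy female 2, which correlated at 0.97 with each other. Among the males, polygamy male 1 and polygamy male 3 correlated at 0.99, and polygamy male 2 correlated at 0.95 with each of them. Counts of calls and the differences of called transcripts are therefore given with and without polygamy female 3.

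Sex bias was widespread, and its shape differed between the directions. Of the 16637 transcripts, 4548 (27.3%) were called sex-biased, 2171 (13%) of them higher in males and 2377 (14.3%) higher in females (limma, Benjamini-Hochberg adjusted p under 0.05, and 1 or more apart on the log2 scale in either direction). Without polygamy female 3, 6506 (39.1%) were called, with 2744 (16.5%) higher in males and 3762 (22.6%) higher in females. Of the first 4548 calls, 4472 were made again in the same direction without that array, and 2034 were added, of which 1437 were higher in females. Over all 3 populations, 52.8% of transcripts had male and female values that did not overlap, 3688 with every male above every female and 5095 the other way. All 4548 called transcripts were among them, so each necessarily had the same sign of difference in all 3 populations. The calls were made on these same values, so this is no separate evidence for them.

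Which sex had more calls depended on the arrays used. Males held 47.7% of the calls with all 6 arrays and 42.2% without polygamy female 3. Without polygamy male 2 they held 46.5% of 3541 calls, and without polygamy female 2 they held 47.7% of 3728. Males held 56.4% of 2523 calls without polygamy male 1, 57.8% of 2429 without polygamy male 3 and 55.8% of 2795 without polygamy female 1. The number higher in females was 1101, 1026 and 1234 in these 3 fits, and the number higher in males was 1422 without polygamy male 1 and 1403 without polygamy male 3. With the population as a block, which compares each male array with the female array of its own population, 3301 transcripts were called, 1770 higher in males and 1531 higher in females.

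**Figure D1:**
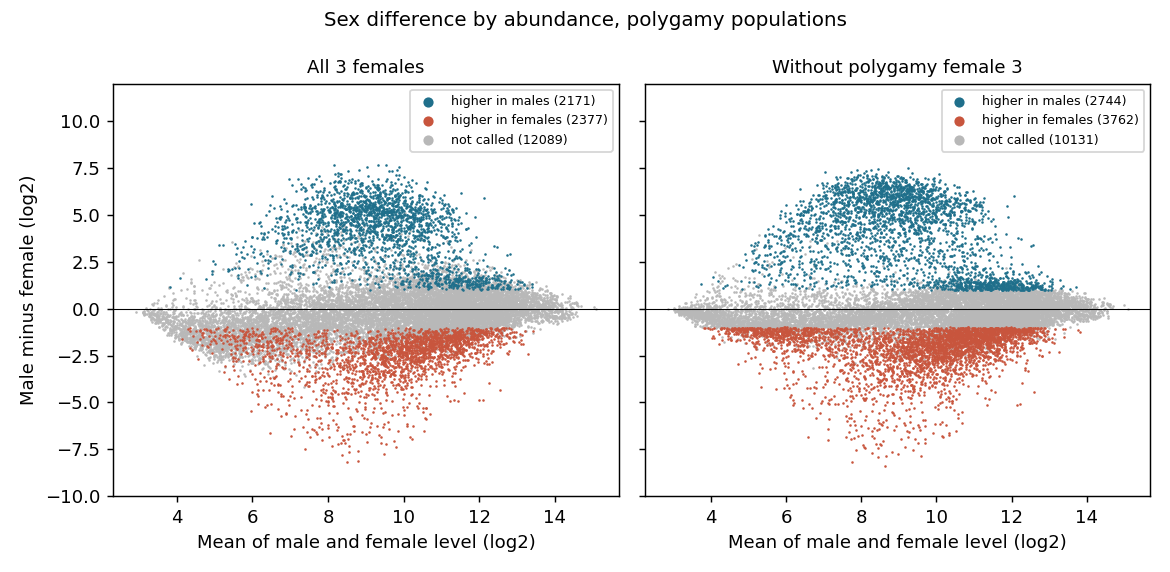
Each point is 1 of 16637 transcripts, with the mean of its male and female level on the x axis and male minus female on the y axis (both log2), for all 3 polygamy females (left) and without polygamy female 3 (right). Transcripts higher in males form a cloud around a difference of 5 (left), while those higher in females lie mostly near the threshold, and the grey points at low levels lie nearer to 0 on the right.

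The differences toward males were far larger than those toward females. The 2171 transcripts higher in males had a median difference of 4.35 (quartiles 2.74 and 5.27), and the 2377 higher in females had a median of -2.16 (quartiles -2.98 and -1.63). Of the male calls, 17.3% had a difference between 1 and 2, and 24.0% and 24.5% had one between 4 and 5 and between 5 and 6. Of the female calls, 42.9% lay between 1 and 2 and 32.5% between 2 and 3. With all 6 arrays male calls thus had their mode far from the threshold and female calls fell off with size. Without polygamy female 3 the medians were 4.41 (quartiles 2.07 and 5.72) toward males and -1.79 (quartiles -2.53 and -1.34) toward females. In that fit 24.7% of male calls lay between 1 and 2 and 22.7% between 5 and 6. Of its female calls, 58.7% lay between 1 and 2.

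The male share rose with the size of the difference required. At a difference of at least 2 there were 1795 transcripts higher in males and 1358 higher in females, and at least 4 there were 1247 and 261, a male share of 82.7%. At 6 or more there were 195 and 65. With polygamy female 3 left out, the corresponding numbers were 2065 and 1553, then 1521 and 282, then 485 and 74. The largest size class was the one that single arrays moved most: 6 or more was reached in males by 101 transcripts without polygamy female 1, and by 255 without polygamy female 2.

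**Figure D2:**
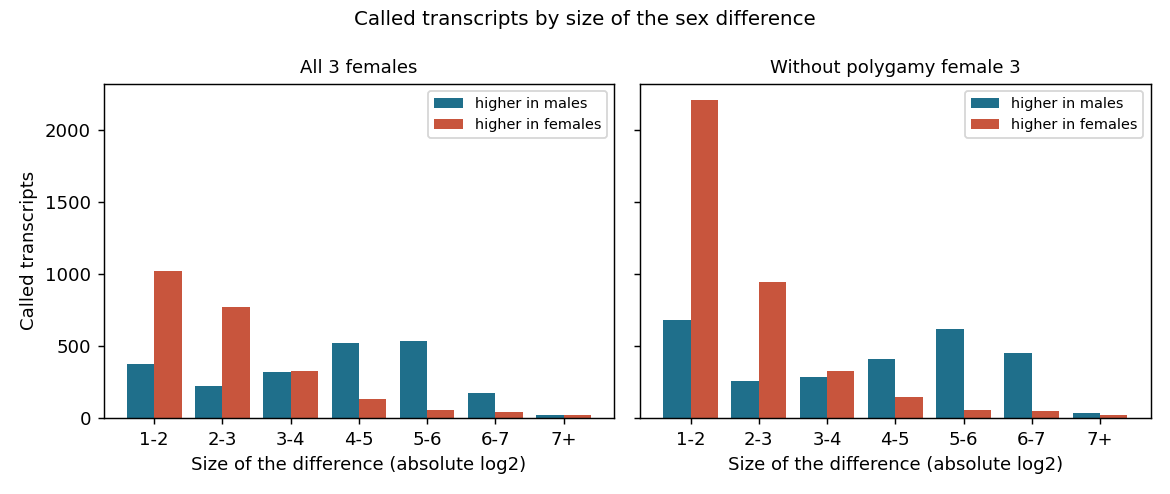
Bars count the called transcripts in each class of absolute male minus female difference (log2), higher in males beside higher in females, with all 3 polygamy females (left) and without polygamy female 3 (right). On the left male calls peak at 5 to 6, with 532 transcripts. On the right they have 679 at 1 to 2 and a further peak of 622 at 5 to 6. Female calls peak at 1 to 2 in both panels, with 1019 and 2209.

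Over all transcripts, called or not, the distribution was centred below 0 and had a long tail toward males. The median difference was -0.30 and the quartiles -1.23 and 0.73. The 5th and 1st percentiles were -2.71 and -4.58, and the 95th and 99th were 4.84 and 6.08. Without polygamy female 3 the median was -0.34, the quartiles -1.09 and 0.54, and the 95th and 99th percentiles 5.49 and 6.53. The middle of the distribution was thus narrower and the male tail longer without that array.

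Sex bias was concentrated at middle abundance. Transcripts were placed in 10 equal groups (deciles) by the mean of their male and female levels, decile 1 being the dimmest. In decile 1, with levels up to 5.92, 29 were called higher in males and 127 higher in females, 9.38% of the group. The called share was 44.0% in decile 4 and 44.8% in decile 5, and it was 7.21% in decile 10, with 56 and 64 calls. Male calls were most frequent in decile 4 (26.4%, levels 8.41 to 9.25) and female calls in decile 6 (22.4%, levels 9.95 to 10.57). Male calls outnumbered female calls in deciles 3, 4 and 5, and female calls outnumbered male calls in the other 7.

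A transcript that is bright in 1 sex and dim in the other has a middle mean by construction, which bears on where large differences fall. Of the 1247 male differences of at least 4, decile 4 held 340, decile 1 held 0 and decile 10 held 0. Of the 261 female ones, decile 3 held 69, decile 1 held 1 and decile 10 held 1. The median difference was -1.14 in decile 1, 0.0035 in decile 4 and 0.10 in decile 10. When the deciles were instead set by the levels of the 6 monogamy arrays, which do not enter the contrast, the peak of male calls lay at deciles 3 and 4 (29.4% and 29.5%) and that of female calls at decile 5 (22.4%). Those levels are also a mean over both sexes, so the same construction holds for them.

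Dim transcripts were raised in polygamy female 3. It differed from the mean of the other 2 polygamy females by a median of 1.67 in decile 1, 1.12 in decile 2 and -0.36 in decile 6. In decile 1 the median SD was 0.21 over the 3 males and 1.08 over the 3 females. Read without polygamy female 3, the same transcripts of decile 1 had a called share of 20.9% and a median difference of -0.52. With the deciles also set anew without that array, the values of decile 1 were 20.02% and -0.51, male calls again peaked at decile 4, with 32.5%, and female calls outnumbered male calls in deciles 1 and 2 and from decile 5 up.

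**Figure D3:**
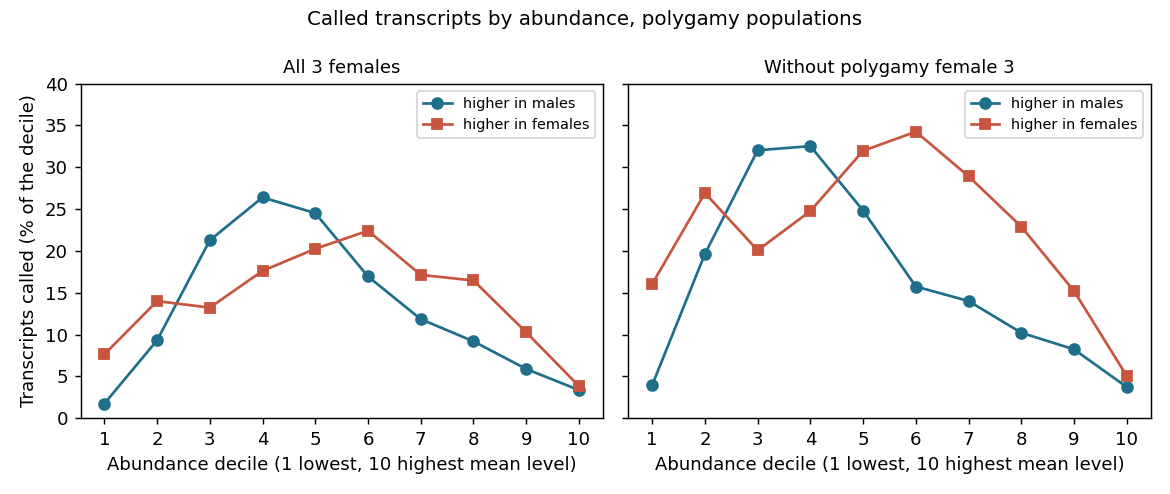
Lines give the percent of transcripts called higher in males and higher in females in each decile of abundance, with all 3 polygamy females (left) and without polygamy female 3 (right). On the left male calls peak at 26.4% in decile 4 and female calls at 22.4% in decile 6, and on the right at 32.5% in decile 4 and 34.3% in decile 6.

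Over all calls, the level in the sex with less RNA was lower for male-biased than for female-biased transcripts. Male-biased transcripts had a median level of 11.69 in males and 7.09 in females, and female-biased transcripts had 8.61 in males and 11.22 in females. Of the male-biased transcripts, 34.9% lay below the 25th percentile of the array in every female, and 29.3% lay at or above it in every female. Of the female-biased transcripts, 28.5% lay below that percentile in every male and 57.8% at or above it in every male. Among differences of at least 4 the order was the other way. Of 1247 male-biased transcripts 46.0% lay below the percentile in every female, and of 261 female-biased ones 70.1% in every male. The shares at or above it in every array of the lower sex were then 8.18% and 7.28%. The 25th percentile of polygamy female 3 was 7.999, against 7.17 and 7.28 in the other 2. Without that array there were 2744 male-biased transcripts, and the rule asked for only 2 females, which is easier to meet. Of these transcripts, 52.0% lay below the percentile in each of the 2 females and 35.5% at or above it in each.

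A stricter description asks for a transcript above the array's median in all arrays of a sex and below the 25th percentile in all arrays of the other. In this sense 393 transcripts were on in males and dim in females, and 97 were on in females and dim in males. There were 715 and 130 without polygamy female 3. In comparison, 4847 transcripts lay above the median on all 6 arrays and 1493 lay below the 25th percentile on all 6. Values this low have no detection call here, so the sizes of the largest differences are uncertain.

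The sizes of the differences varied among the populations, and those of population 3 all rest on polygamy female 3, the array that stood apart. Male minus female had the same sign in all 3 populations for 10545 transcripts (63.4%), 4423 toward males and 6122 toward females. Across transcripts, which are not independent, the differences of populations 1 and 2 correlated at 0.91, those of 1 and 3 at 0.70 and those of 2 and 3 at 0.57. For called male-biased transcripts the median was 5.03 in population 1, 4.60 in population 2 and 3.15 in population 3. For called female-biased transcripts the median absolute differences were 2.18, 1.98 and 2.30.

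Population 3 held fewer large male differences and more large female ones. Each of its differences uses polygamy female 3, whose dim values were raised. How much of the shift belongs to that array rather than to the population was not tested. A difference of 4 or more toward males was reached by 1525 transcripts in population 1, 1469 in population 2 and 842 in population 3, and one toward females by 298, 357 and 966. Transcripts were then chosen on any 2 populations and read in the remaining one. Of 1303 transcripts at least 4 higher in males in populations 1 and 2, 99.0% were higher in males in population 3 too, with a median of 3.73, and 43.1% reached 4. The same reading gave 97.4% of 576 reaching 4 in population 1 and 91.7% of 612 in population 2. The transcripts reaching 4 were the same 561 in each reading, those past 4 in all populations. These shares thus differed only through the number chosen, and they are not separate checks. Toward females 93.3% of 165 reached 4 in population 1, 73.3% of 210 in population 2 and 70.3% of 219 in population 3. Here too the transcripts reaching 4 were the same 154 in each reading. Of the 966 transcripts 4 or more higher in females in population 3, the medians in populations 1 and 2 were -1.50 and -0.85. Of them 353 were called higher in females, as were 14.3% of all transcripts. The values of population 3 entered both the choice and the calls, so this count is no separate evidence.

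Among named transcripts, 1 was called higher in males and 7 were called higher in females. That is 18.2% of 44, against 27.3% of all transcripts. The male one was CG31178, which had 12.03, 11.09 and 11.94 in polygamy males 1 to 3, against 4.28, 7.04 and 4.52 in polygamy females 1 to 3. Every male value was above every female value, and polygamy female 2 stood above the other females. Its difference was 6.40 (SE 0.78, limma adjusted p = 0.00201) and 6.02 without polygamy female 3 (adjusted p = 0.00218). In polygamy females 1 and 3 it was dimmer than the 5th percentile of the array.

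Genes of genome maintenance were represented by 6 transcripts, of which 3 were called, all higher in females, where 14.3% of all transcripts were called in that direction. With so few members nothing is read from that share. SuUR, which holds back replication of late-replicating chromatin in polytene cells, had 9.23, 7.42 and 9.47 in males against 11.54, 11.07 and 10.97 in females. Its difference was -2.49 (SE 0.59, limma adjusted p = 0.0245) and -2.60 without polygamy female 3, and polygamy male 2 was the lowest array. The call was lost without polygamy male 1 (adjusted p = 0.0561), polygamy female 1 (0.0852) or polygamy female 2 (0.0569). The transcript shared by Rad1, a subunit of a DNA damage checkpoint clamp, and Sws1 had 7.77, 9.34 and 8.05 in males against 10.89, 11.58 and 11.40 in females. It differed by -2.90 (SE 0.49, adjusted p = 0.00698), and by -2.85 without polygamy female 3, with each female more than 1 above each male. Since the transcript holds both genes, its value cannot be given to either.

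The transcript shared by moi, a protein that caps telomeres, and Tgs1, which modifies the caps of small RNAs, had 9.69, 10.23 and 9.62 in males against 11.20, 11.37 and 10.94 in females. Its difference was -1.32 (SE 0.32, limma adjusted p = 0.0262) and -1.44 without polygamy female 3, and the block by population gave an adjusted p of 0.0697. The call was also lost without polygamy male 1, polygamy male 3, polygamy female 1 or polygamy female 2 (adjusted p = 0.0685 to 0.131). The chromatin remodeller kis, the histone deacetylase HDAC3 and the histone gene His4r did not pass, with differences of -0.71, -0.55 and -0.22.

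Nutrient handling was represented by 4 transcripts, of which 2 were called, both higher in females, beside the same 14.3% of all transcripts. Wdr24 and mio belong to a complex that activates the growth pathway of TORC1 and that is known for its role in the fly ovary. Wdr24 had 8.58, 9.26 and 8.67 in males against 10.90, 10.94 and 11.48 in females, a difference of -2.27 (SE 0.35, limma adjusted p = 0.00464) and -2.08 without polygamy female 3. All 3 males lay well below all 3 females. Its partner mio had 10.23, 10.84 and 10.46 in males against 10.57, 11.13 and 9.03 in females. Here the sexes overlapped and polygamy female 3 was the lowest array, and the difference of 0.27 turned to -0.34 without it, passing in neither fit.

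NaPi-III, a phosphate transporter, had 10.61, 10.26 and 10.72 in males against 12.20, 12.02 and 11.87 in females. The difference was -1.51 (SE 0.30, limma adjusted p = 0.0124) and -1.58 without polygamy female 3, and the block by population gave an adjusted p of 0.0557. Leaving out polygamy male 1, polygamy male 3 or polygamy female 1 also ended the call (adjusted p = 0.0563 to 0.0630). Fatp1, a fatty acid transport protein, had 13.29, 13.47 and 13.45 in males against 12.12, 12.68 and 10.12 in females. Every male was above every female, yet the difference of 1.77 (SE 0.67) did not pass (adjusted p = 0.0986). Without polygamy female 3, the lowest array, it was 1.01 and passed (adjusted p = 0.0275).

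Of 3 transcripts of mitochondria and cofactors, 1 was called higher in females, beside 14.3% of all transcripts. This was the transcript of Mocs2A and Mocs2B, the subunits of molybdopterin synthase. It had 8.03, 8.16 and 7.55 in males against 10.98, 9.67 and 11.04 in females, a difference of -2.66 (SE 0.47, limma adjusted p = 0.00795) and -2.42 without polygamy female 3. No male value reached a female one. The mitochondrial import protein Tim10, on a transcript with CG42497, differed by -0.82 and the complex I subunit ND-MNLL, with CG45089, by -0.21, and neither passed.

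For protein turnover, rdx, an adaptor of a ubiquitin ligase, had 11.60, 9.05 and 11.54 in males against 14.05, 13.97 and 13.01 in females. It had the largest female bias of the named transcripts, -2.95 (SE 0.76, limma adjusted p = 0.0322) and -3.28 without polygamy female 3, and polygamy male 2 was again the lowest array. With the population as a block its adjusted p was 0.0609, and without polygamy male 1, polygamy male 3, polygamy female 1 or polygamy female 2 it was 0.0533 to 0.1003. Uba1, the enzyme that activates ubiquitin, differed by 0.20, and by -0.38 without polygamy female 3, and passed in neither fit.

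Of all transcripts, 14.3% were called higher in females. In the group of RNA machinery this held for 1 of 6 transcripts, the one shared by moi and Tgs1. That of Pbp49, a subunit of the factor that starts small nuclear RNA transcription, and CG42516 had 11.39, 9.60 and 11.18 in males against 12.89, 11.88 and 13.25 in females. The sexes did not overlap, and the difference of -1.95 (SE 0.61, limma adjusted p = 0.0588) did not pass. It passed with the population as a block (adjusted p = 0.0312) and with dim transcripts left out (adjusted p = 0.0491). PIG-P makes glycolipid anchors and Tcs6 modifies transfer RNA, and the transcript they share had 11.35, 11.67 and 11.08 in males against 12.51, 12.23 and 13.28 in females. The sexes did not overlap there, and at -1.30 (SE 0.39) it just missed the threshold (limma adjusted p = 0.0503). It gained the call in 4 other settings, among them 1 fit of all 12 arrays (limma adjusted p = 0.00503). It did not pass with the population as a block (limma adjusted p = 0.127). Nor did it pass without polygamy male 1, polygamy male 3 or polygamy female 1 (limma adjusted p = 0.112 to 0.188). Without polygamy female 3 it missed on size only, at -0.999 (adjusted p = 0.0318).

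None of the 3 transcripts of structure and adhesion was called, beside 27.3% of all transcripts called in either direction. The laminin LanA differed by -1.25 and the neuronal gene fend by -0.91. The membrane skeleton protein alpha-Spec had 11.30, 11.31 and 11.54 in males against 11.28, 11.21 and 8.37 in females. Its difference of 1.10 (limma adjusted p = 0.333) was 0.14 without polygamy female 3. A like pattern held for the transcript of Dpm2, of dolichol mannose synthesis, and CG12016, at 1.18 with all arrays and 0.16 without that array. Of the 21 other named transcripts, CG31178 was the only call, beside the same 27.3% of all transcripts, and their median difference was 0.11.

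**Figure D4:**
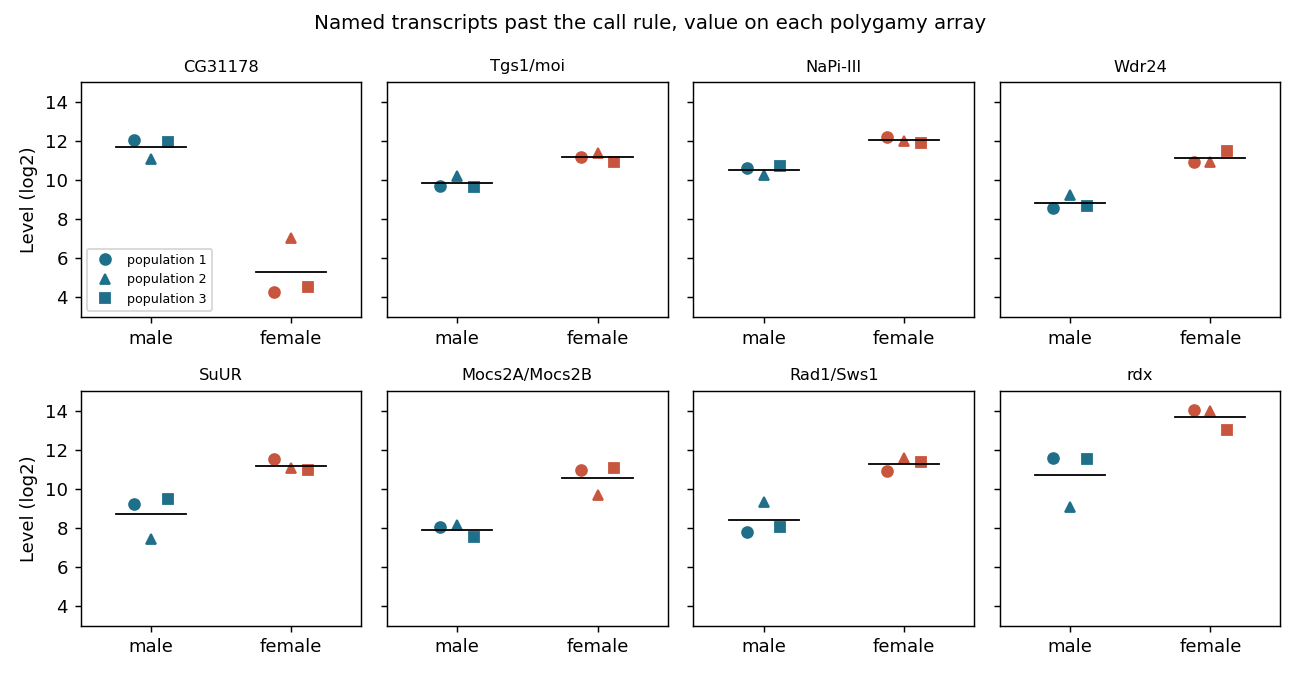
Points give the log2 level of each named transcript past the call rule on each polygamy array, males left of females, with a symbol per population and a line at the mean of 3. CG31178 is the 1 transcript with the males above, and in all 8 panels the sexes do not overlap.

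Transcripts without a name had the largest differences of all. On the male side FBtr0089608 had 13.02, 13.55 and 12.95 in males against 3.91, 8.50 and 4.08 in females, a difference of 7.68 (SE 1.23, limma adjusted p = 0.00553). FBtr0073182 had 11.88, 12.48 and 11.59 in males against 4.04, 5.59 and 3.35 in females, a difference of 7.65 (SE 0.62, adjusted p = 0.000517). In both, as in CG31178, polygamy female 2 was the highest female, and without polygamy female 3 their order turned, at 6.97 for FBtr0089608 and 7.17 for FBtr0073182. On the female side FBtr0077804 had 4.39, 4.74 and 4.12 in males against 12.91, 12.74 and 12.19 in females, a difference of -8.20 (SE 0.35, adjusted p = 0.000378). FBtr0076573 had 4.51, 4.93 and 4.73 in males against 12.57, 12.64 and 13.35 in females, a difference of -8.13 (SE 0.34, adjusted p = 0.000378). Without polygamy female 3 they were -8.41 and -7.88.

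The calls were then read in the monogamy populations, which share no sample with the polygamy contrast, though all arrays may have been normalized together. Of the 2171 transcripts higher in males, 2152 (99.1%) were higher in males in all 3 monogamy populations, and of the 2377 higher in females, 2296 (96.6%) were higher in females in all 3. Over all transcripts, 71.2% had the sign of their polygamy difference in all 3 monogamy populations. By the same call rule within monogamy, 6844 (41.1%) were called, 2469 (14.8%) higher in males and 4375 (26.3%) higher in females. Of the polygamy calls, 3856 were called in the same direction in monogamy and 1 in the opposite direction.

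Sets chosen on the monogamy arrays alone gave the levels on each polygamy array. There were 713 male-limited transcripts, above the median in all monogamy males and below the 25th percentile in all monogamy females. Their median was 11.99, 12.11 and 11.98 in polygamy males 1 to 3, against 5.39, 6.63 and 7.94 in polygamy females 1 to 3. Of the 713, 702 were called higher in males, against 13% of all transcripts. There were 29 female-limited transcripts by the reverse rule, with medians of 5.25, 5.43 and 5.35 in polygamy males against 11.12, 10.95 and 11.41 in polygamy females. Of these, 28 were called higher in females, against 14.3% of all transcripts.

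The size of that second set depended on monogamy male 1. Without monogamy male 1 in the rule the set held 175 transcripts, of which 171 were called higher in females in polygamy, and without monogamy male 2 or monogamy male 3 it still held 29. A set of 2124 transcripts low on all monogamy arrays had medians of 4.56 to 4.60 in polygamy males, against 5.39, 4.93 and 7.27 in polygamy females. In polygamy female 3 both the male-limited and the low set were thus raised. In polygamy female 2 the male-limited set was higher than in polygamy female 1, while the low set was lower there. The part of these shifts in the sizes of the sex differences was not tested. In population 1 the 713 transcripts had a median difference of 6.59, in population 2 of 5.50 and in population 3 of 3.97.

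**Figure D5:**
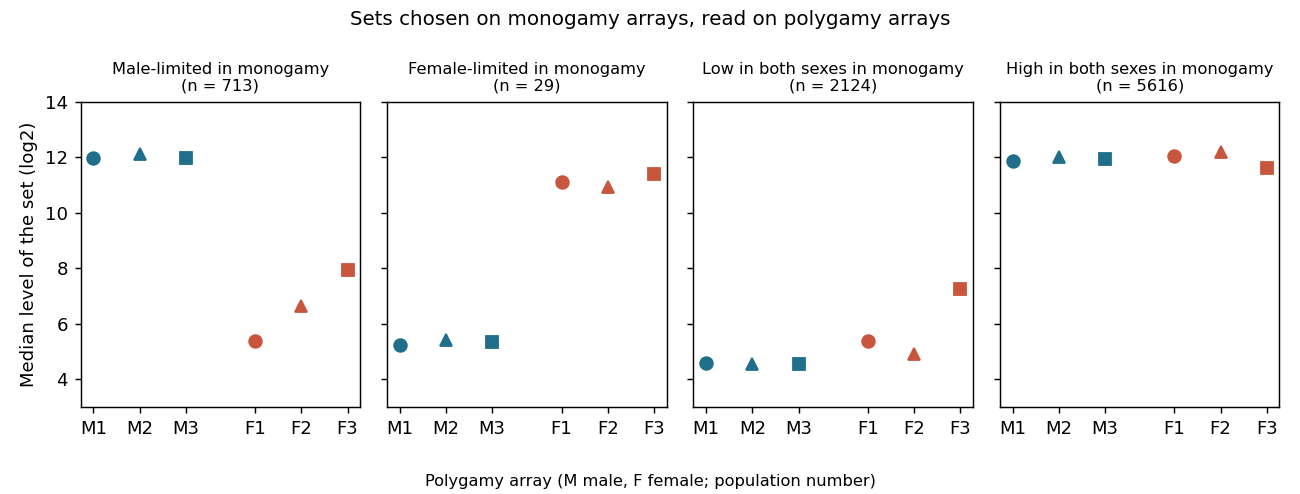
Points give the median log2 level, on each polygamy array, of 4 sets of transcripts chosen on the monogamy arrays alone, with males (M1 to M3) left of females (F1 to F3). The male-limited set stands at 5.39, 6.63 and 7.94 in the females, and the set low in both sexes is raised to 7.27 in polygamy female 3.

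Few or no transcripts passed the test of a sex difference that depended on the mating regime, except under array weights. The interaction, the difference in polygamy minus that in monogamy, passed for 0 of 16637 transcripts (0%, limma on all 12 arrays, smallest adjusted p 0.0622), and 593 had an unadjusted p under 0.05. The count was also 0 without polygamy female 3, with 967 unadjusted and a smallest adjusted p of 0.0501 (limma). It was 7 without polygamy female 1, 1 with a random block by population and 133 with array weights estimated gene by gene. Another estimate of the weights, which did not converge, gave 5476. For the named transcripts called in polygamy the adjusted p of the interaction was 0.862 or more. Their monogamy differences were 6.81 for CG31178, -3.002 for Rad1 and Sws1, -2.32 for Wdr24, -2.11 for SuUR, -1.82 for Mocs2A and Mocs2B, -1.58 for moi and Tgs1, -1.38 for rdx and -0.73 for NaPi-III. Of these, rdx (limma adjusted p = 0.182) and NaPi-III (adjusted p = 0.233) were not called in monogamy, while the others were.

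Per population, the overall size of the sex difference did not separate the regimes. The median absolute difference was 0.93, 0.98 and 1.49 in polygamy populations 1 to 3, against 0.79, 0.87 and 1.08 in monogamy populations 1 to 3 (two-sided exact permutation p = 0.4). Transcripts 2 or more higher in males made up 14.5% ± 3.18 in polygamy and 12.3% ± 1.31 in monogamy (SD, n = 3 each, exact permutation p = 0.4). Those 2 or more higher in females made up 14.2% ± 5.08 in polygamy and 9.15% ± 3.00 in monogamy (SD, n = 3 each, exact permutation p = 0.2). The adjusted p over these 3 measures was 0.4 for each by the exact permutation test, and 3 populations against 3 cannot give a p below 0.1. Without polygamy population 3 the differences between the regime means were 0.05 in median absolute difference and 0.36 and 2.14 percentage points in the 2 shares, against 0.22, 2.19 and 5.01 with it.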

How the data were processed

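Per the submitters' processing notes, RMA gave the deposited log2 expression values. The version of RMA, the annotation and the set of arrays normalized at once were not given in the sources used here. RNA-Seq of heads was not analysed here. All 12 columns of the table were matched to a sample. No array repeated another (smallest median absolute difference between any 2 arrays 0.14). No filter, normalization or detection call was added.

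Male minus female was fitted on the 6 polygamy arrays with lmFit and eBayes of limma 3.58.1 (R 4.3.3), without a block, and adjusted over all 16637 transcripts. The interaction used all 12 arrays in 4 groups. The labels give both sexes of a population 1 subject name, which pairs the samples. Deviations from the group means correlated between the sexes at 0.09, 0.07 and -0.18 in populations 1 to 3. Alternatives were a fixed or random population block (statmod 1.5.0), other normalizations, treatment of dim values, array weights, other thresholds and leaving out each array.

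Every transcript with a symbol was eligible to be named, in role groups, with array values for those called. Without a symbol, the 2 largest differences per direction were named, among calls whose sexes did not overlap. A few uncalled transcripts were given in full after their values were seen. Members, lists and groups were chosen with earlier results of these data known. Sequences were not used here.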

Additional observations from a re-analysis of the deposited data

Results flagged for a closer look

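The transcript of CG7071 and Muted was higher in males in all 3 polygamy populations and higher in females in all 3 monogamy populations. Its male minus female difference was 0.11 in polygamy and -0.26 in monogamy, neither past the call rule, and the interaction was 0.37 (limma adjusted p = 0.862). Over all transcripts, 305 had opposite signs in this way in all 6 populations, and 8669 had the same sign in all 6. Within a transcript, single arrays far from their group were not looked for, since each group held 3. How polygamy female 3 differed over all transcripts is given above.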

How the results depend on the processing

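Under quantile normalization (over the 6 arrays, or by sex), median centring, a floor at each array's 5th percentile, leaving out dim transcripts, a random block and 1 fit of all 12 arrays, the 3 counts of calls stayed within 1.5 times those given. Leaving out 1 array gave 2429 to 6506 calls, 1403 to 2744 higher in males and 1026 to 3762 higher in females. It gave a male share of 77.5% to 84.4% at a difference of at least 4, and 0 to 7 interactions. The replicate block by population gave 1531 higher in females and changed the calls of rdx, NaPi-III, moi and Tgs1, and Pbp49 and CG42516, as given above. A test against a difference of 1 (treat) gave 2291 calls, 838 of them higher in females. Array weights gave 3860 higher in females and 5476 interactions, but the estimation of weights did not converge (12 arrays, weights 0.0219 to 107.6). Weights estimated gene by gene, added after the data were seen, gave 7757 calls, 4798 of them higher in females, and 133 interactions. A random replicate block gave 1 interaction, and quantile normalization without polygamy female 3, also added, 3996 higher in females. Leaving out monogamy male 1 and polygamy female 3 together, also added, gave 0 interactions by limma, with 1931 at an unadjusted p under 0.05. Of the calls without polygamy female 3, 96.7% had the same sign in all 3 monogamy populations, against 97.8% of the calls with it. Where single transcripts were compared, no named or extreme transcript that was called turned its direction, 17 comparisons lost a call and 13 gained one. For named transcripts these comparisons included the array weights that did not converge. They did not include the other thresholds, the weights estimated gene by gene or quantile normalization without polygamy female 3. The number of arrays limits the precision, and levels near the low end of the arrays have no detection call.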
